A study of Mus musculus with 10 samples.

Results

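A set of 41 genes encoding neuronal RNA-binding and granule proteins was followed in the neurites of cultured mouse cortical neurons, with and without injury and with and without the RNA-binding protein Cpeb1. The genes were taken by name from 13 families and kept if their value reached 1 FPKM (fragments, scaled to transcript length and library size) in at least 2 of the 10 libraries. All 41 of the 41 met that rule, out of 15712 genes that met it among the 45195 in the deposited table, and 37 of the 41 reached 1 FPKM in every library. The exceptions were Igf2bp1 and Igf2bp2, which reached it in 4 libraries each, Nova1 in 5 and Igf2bp3 in 8. The rule used no contrast between groups, but Igf2bp1 and Igf2bp2 would not have met it on the naive libraries alone.

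The neurons were taken at E16.5 and plated on membranes with 3 µm pores, through which neurites grow while the cell bodies stay on the upper side. The wild-type neurons were C57BL/6, and the knockout neurons carried Cpeb1 flox/flox on the same background. Every culture, wild type included, was infected at plating with an AAV2 that expresses Cre under the CAG promoter, a promoter active in most cell types. Neurites on the underside were left alone (naive) or scraped off on day 7 and lysed on day 8, 24 hours later (injured), and the cell bodies were wiped off before lysis. The groups were 3 naive and 3 injured libraries of wild type and 2 naive and 2 injured libraries of the knockout, so injured neurites were also younger than naive ones and injury and age cannot be told apart. The labels do not say whether replicates came from separate cultures, and the p-values then measure only the spread between these samples.

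Neurons carry mRNA into axons and dendrites in granules, assemblies of RNA with proteins that transport it, hold it silent and release it for local translation. FMRP, Staufen, the IGF2 mRNA-binding (zipcode-binding) proteins, Pur proteins and several hnRNPs are known as components of such transport granules, while TIA1, G3BP and CAPRIN1 assemble stress granules when translation initiation stops. ELAVL (Hu), CELF, NOVA and RBFOX proteins bind sequences in introns or 3' untranslated regions and set splicing, stability and translation of neuronal transcripts. Cpeb1 itself binds the cytoplasmic polyadenylation element and controls poly(A) tail length, and the series set out to ask what its loss does in naive and injured neurites.

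Since Cpeb1 recognises a short element in 3' untranslated regions, the letters TTTTAT and TTTTAAT were searched on the transcript strand of the longest annotated 3' untranslated region of each gene. Neighbouring matches can share a terminal T, and the other strand was not searched. The sites shown are from the 8 member genes with a motif starting within 100 nt of the transcript end, 1 site a gene and the one nearest the end, where cytoplasmic polyadenylation elements are known to act. Each is printed 5' to 3' with 8 nt on both sides and the motif in capitals, from GENCODE release M21 transcripts on GRCm38.
Rbm3 (chrX:8138989-8139010, minus strand): ataattacTTTTATtaaaataa
Fmr1 (chrX:68717921-68717942, plus strand): atgtaaatTTTTATtaaaaagt
Ybx1 (chr4:119278054-119278076, minus strand): aacttcatTTTTAATttgtaata
Khdrbs1 (chr4:129713850-129713872, minus strand): gttgttaaTTTTAATgttaaaac
Khsrp (chr17:57021083-57021104, minus strand): tttttactTTTTATcgctcgtt
Smn1 (chr13:100137642-100137663, plus strand): gtcaagatTTTTATtaatgcct
Rbfox2 (chr15:77079066-77079087, minus strand): ttgctggcTTTTATaaactctt
Celf1 (chr2:91019394-91019416, plus strand): taaatctgTTTTAATtgcacaga

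A motif near the end was held by 8 of 41 members (19.5%) and by 18.9% of the 13178 tested genes with an annotated 3' untranslated region, so the members did not stand apart in that share. Anywhere in the region, 37 of 41 members held a motif, against 62.7% of those genes. The members' regions were also longer, with a median of 2638 nt against 1203.5 nt. Within length classes the counts were 3 of 5 members up to 1000 nt (36.4% of tested genes), 5 of 7 from 1000 to 2000 nt (72.2%), 14 of 14 from 2000 to 4000 nt (89.9%) and 15 of 15 above 4000 nt (97.2%). The members with no motif were Cirbp, Fxr2, Rbfox3 and Stau1. These matches describe sequence letters and do not show binding.

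The libraries were checked before the member values were read. Cpeb1 stood at 7.16, 5.96 and 5.86 FPKM in naive and 1.65, 13.8 and 22.6 in injured wild type. With the knockout label it stood at 5.97 and 0.356 in naive and 1.14 and 3.15 in injured neurites. The library labelled knockout naive 1 thus fell among the naive wild-type values. Wild-type injured library 1, at 1.65 FPKM, fell between the knockout injured values. Genotype directions below follow the labels. Which exons Cre removes is not stated, and the level of the whole gene cannot show whether reads came from them. Wild-type injured library 3 had the lowest mean correlation with the others (0.839), the smallest scaling factor (0.811) and the fewest genes at 1 FPKM or more (12231, against 12495 to 13143). It gave the highest or lowest of the 10 values for 20 of 41 members (48.8%) and for 50.6% of tested genes. The depth of each library as a read count was not used here, so no counting interval is given.

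The label of the material as neurites of cortical neurons was read against marker genes. The 8 pan-neuronal markers summed to between 2126 and 4261 FPKM over the 10 libraries. The 9 interneuron markers summed to 449 to 709 FPKM in wild-type naive and 488 to 855 in knockout naive libraries, but to 56.9 to 90.2 and 63.8 to 113 in the injured ones, and by limma 5 of the 9 fell in wild type and 1 in the knockout. Astrocyte markers (9 genes) summed to 398 to 542 and 492 to 563 FPKM in wild-type and knockout naive, and to 620 to 1473 and 729 to 822 in injured libraries. Radial glia and progenitor markers (10 genes, 9 tested) summed to 2290.5 to 2818 FPKM in naive and 2578 to 4814 in injured wild type, with 7 of the 9 above 0 in log2 fold change and 1 passing the test, and to 3145 to 4244 and 3793 to 3852 in the naive and injured knockout. Eomes was below 1 in each library, and the 7 oligodendrocyte lineage markers summed to 114 to 405. Microglial Cx3cr1 and Tmem119 and the fibroblast gene Lum were at 0 throughout, and the summed microglial (6 genes) and vascular and meningeal (9 genes) markers stayed at or below 7.14 and 16.4 FPKM. The 7 nuclear-retained RNAs, which mark cell bodies, summed to 2776 to 4199 FPKM in wild-type naive, 6097 to 7329 in wild-type injured, 2342 to 3224 in the naive knockout and 1825.0 to 2975 in the injured knockout. Malat1 carried that sum, at 1856 to 3440.1 FPKM in naive and 5513 to 6633 in injured wild type. It was the only gene of the list that passed the test in wild-type injury (log2 difference 1.23, limma adjusted p = 0.0455). Neat1 was also above 0, at 0.80, and did not pass. The list as a whole did not follow it, since 5 of the 7 were below 0 with a median of -0.25 in wild-type injury, and 5 of the 7 with a median of -0.32 in the knockout. Transcripts of glial and nuclear marker genes were thus present in every library, at levels that differed between groups.

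The members spanned more than 3 orders of magnitude in level. In the mean of the wild-type naive libraries 6 members lay at 100 FPKM or more, where 6.61% of tested genes lay. Another 15 were from 30 to 100 FPKM (14.3% of tested genes), 11 from 10 to 30 (22.5%), 5 from 3 to 10 (23.9%) and 4 under 3 (32.7%). The members together summed to between 3136 and 4228 FPKM per library, and Ybx1 made up 25.8% to 37.6% of each sum. Some neighbouring genes of a family kept their order in all libraries and others exchanged places. The families are described in order of their leading member's level.

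**Figure D1:**
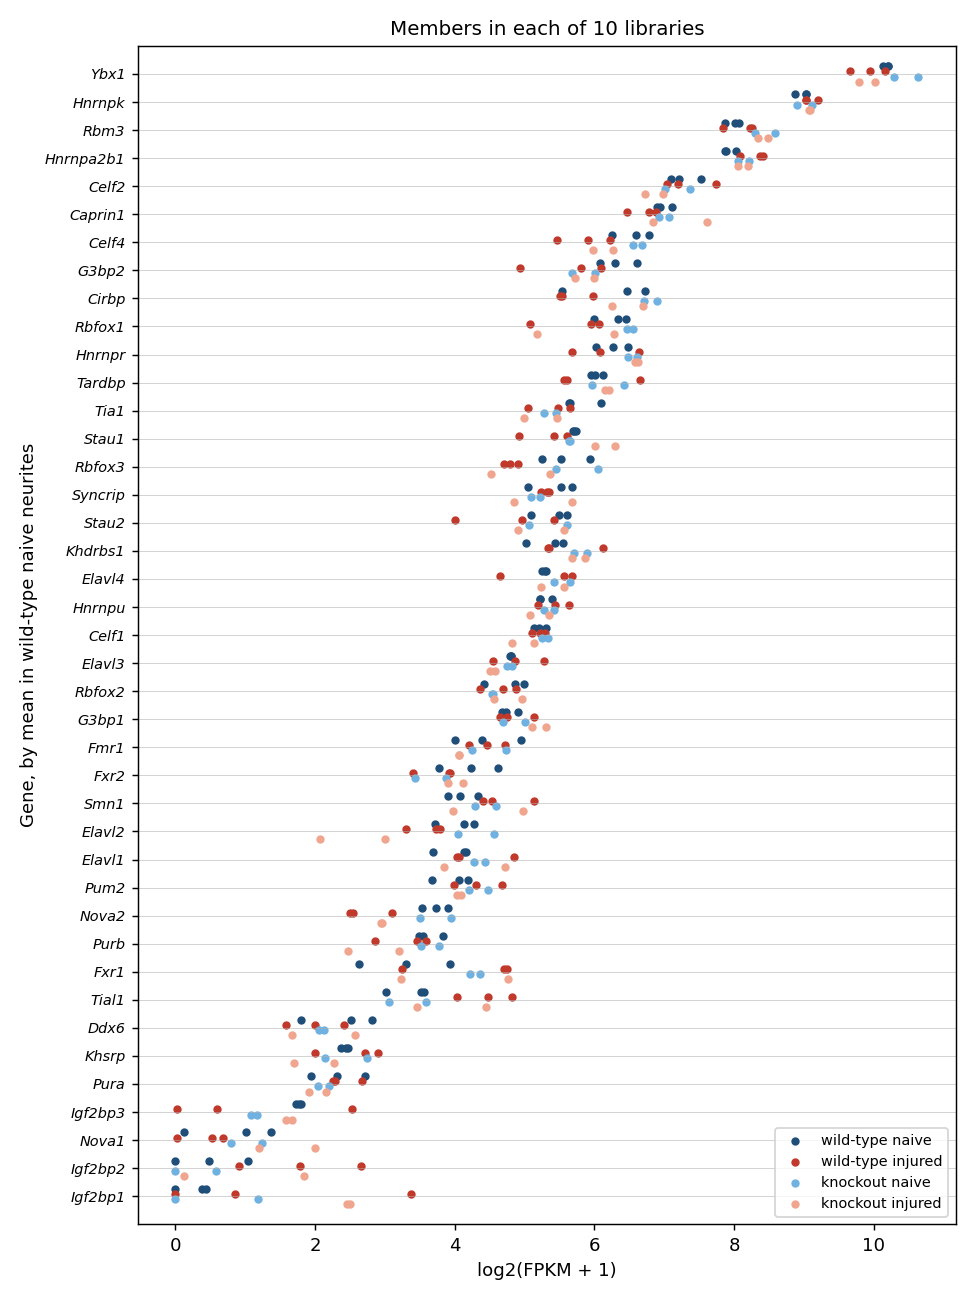
FPKM of the 41 member genes in the 10 libraries on a log2(value + 1) axis, with points for libraries coloured by group and genes in order of their mean over the wild-type naive libraries. Ybx1 lies apart at the top with 810.2 to 1592 FPKM, and the 3 Igf2bp genes and Nova1 lie at the bottom.

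Ybx1, a cold-shock domain protein that packages mRNA, was the most abundant member in every library. Its level was 1180.2, 1125 and 1183 FPKM in naive wild type, 981, 810.2 and 1148 in injured wild type, 1592 and 1248 in the naive knockout and 1036 and 884 in the injured knockout. The lowest Ybx1 value was thus still above the highest value of any other member. The Pur proteins bind purine-rich sequences and travel with kinesin-driven granules, and their genes were far lower: Purb had a mean of 9.74 FPKM over the 10 libraries and was above Pura in all 10. Pura was at 5.57, 3.99 and 2.83 FPKM in naive wild type, 5.35, 3.88 and 3.78 in injured wild type, 3.58 and 3.14 in the naive knockout and 2.77 and 3.46 in the injured knockout.

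The hnRNP genes kept a fixed order, with Hnrnpk above Hnrnpa2b1, Hnrnpr and Hnrnpu in 10 of 10 libraries at each step, while Hnrnpu and Syncrip exchanged places (6 of 10). Hnrnpk, a poly(C)-binding protein of nucleus and cytoplasm, was at 519.5, 519.8 and 466 FPKM in naive wild type, 519, 522 and 589 in injured wild type, 478 and 553 in the naive knockout and 535 and 541 in the injured knockout. Its pooled SD between replicates was the smallest of the members, 0.0996 on the log2 scale, against a median of 0.329 over members and 0.583 over all tested genes. Syncrip (hnRNP Q, a component of neuronal transport granules) was at 44.8, 50.2 and 32.2 FPKM in naive wild type, 39.0, 39.9 and 36.7 in injured wild type, 36.4 and 33.1 in the naive knockout and 50.3 and 27.9 in the injured knockout, so its 4 groups overlapped. Hnrnpa2b1, which recognises the trafficking element of myelin basic protein mRNA, averaged 279 FPKM over the 10 libraries and the nuclear scaffold protein gene Hnrnpu 39.3. Hnrnpr was at 87.9, 76.3 and 64.3 FPKM in naive wild type, 98.3, 66.6 and 50.1 in injured wild type, 87.9 and 97.1 in the naive knockout and 97.3 and 94.4 in the injured knockout.

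The cold-inducible proteins Rbm3 and Cirbp are glycine-rich RNA-binding proteins made at lowered temperature or under stress. Rbm3 was above Cirbp in all 10 libraries, by 2.24-fold to 6.73-fold. Rbm3 was at 258, 269 and 234 FPKM in naive wild type, 305, 229 and 298 in injured wild type, 382 and 312 in the naive knockout and 325 and 357 in the injured knockout. Each knockout library was therefore above each wild-type one, a separation that was not counted over all tested genes. Cirbp was at 87.2, 45.6 and 105 FPKM in naive wild type, 45.3, 62.1 and 44.7 in injured wild type, 118 and 104 in the naive knockout and 75.2 and 103 in the injured knockout.

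Among the CELF genes, Celf2 exceeded Celf4 and Celf4 exceeded Celf1 in 10 of 10 libraries. Celf2, a regulator of splicing and of mRNA stability, was at 147, 136 and 184 FPKM in naive wild type, 129.97, 213 and 146 in injured wild type, 164 and 128 in the naive knockout and 104 and 125 in the injured knockout. Celf1 was even, at 38.8, 34.2 and 35.7 FPKM in naive wild type, 33.5, 38.3 and 36.2 in injured wild type, 39.3 and 37.1 in the naive knockout and 34.1 and 27.3 in the injured knockout. Its replicate SD of 0.118 (log2) was next to that of Hnrnpk among members. Celf4, which binds many synaptic mRNAs, averaged 78.7 FPKM and is taken up with the injury comparison.

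Of the stress granule nucleators, Caprin1, the partner of G3BP, was above G3bp2 in 10 of 10 libraries. Caprin1 was at 138, 122 and 118 FPKM in naive wild type, 109, 116 and 87.7 in injured wild type, 121 and 133 in the naive knockout and 195 and 114 in the injured knockout. The G3BP proteins, the core scaffold of stress granules, averaged 62.1 FPKM for G3bp2 and 29.1 for G3bp1. Tia1 and its relative Tial1 (TIAR), which bind U-rich sequences and repress translation, averaged 44.5 and 14.1 FPKM, and G3bp1 was above Tial1 in every library.

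Rbfox1, a neuronal splicing factor that binds UGCAUG, led the NOVA and RBFOX genes. It was at 79.7, 62.9 and 86.3 FPKM in naive wild type, 32.6, 65.7 and 61.0 in injured wild type, 92.6 and 87.8 in the naive knockout and 76.6 and 35.0 in the injured knockout. Rbfox1 was above Rbfox3 in 10 of 10 libraries, Rbfox3 averaged 39.4 FPKM, and Rbfox2, which is found in many tissues, averaged 24.98. Nova2, the cortical NOVA protein gene, averaged 9.22 FPKM and was above Nova1 in every library. Nova1 was at 0.0880, 1.59 and 1.01 FPKM in naive wild type, 0.613, 0.0210 and 0.444 in injured wild type, 1.36 and 0.741 in the naive knockout and 2.99 and 1.29 in the injured knockout. At such levels its differences rest on values near the floor of the filter.

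Tardbp (TDP-43, a nuclear splicing regulator found in axonal granules) was above Smn1, the gene of the snRNP assembly protein SMN, in all libraries. Tardbp was at 63.4, 61.1 and 69.0 FPKM in naive wild type, 48.0, 46.2 and 100.1 in injured wild type, 84.5 and 61.3 in the naive knockout and 69.8 and 73.3 in the injured knockout. The wild-type injured range spanned all other libraries, from library 2 at the bottom to library 3 at the top. Smn1 was at 15.8, 19.1 and 13.9 FPKM in naive wild type, 20.2, 22.2 and 34.0 in injured wild type, 18.6 and 23.0 in the naive knockout and 14.8 and 30.7 in the injured knockout. Its injured wild-type values lay above all 3 naive ones.

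The double-stranded RNA-binding Staufen genes were close in level, with Stau1 above Stau2 in 9 of 10 libraries. Stau2, the brain-enriched paralog, was at 33.0, 44.0 and 47.8 FPKM in naive wild type, 30.3, 41.9 and 15.03 in injured wild type, 32.6 and 47.7 in the naive knockout and 46.3 and 29.0 in the injured knockout. The KH-domain genes differed widely. Khdrbs1 (SAM68, a STAR-family splicing regulator) was at 42.4, 45.6 and 31.6 FPKM in naive wild type, 39.9, 39.4 and 68.8 in injured wild type, 58.3 and 51.1 in the naive knockout and 57.5 and 50.4 in the injured knockout. Khsrp (KSRP, a decay factor of AU-rich mRNAs) was at 4.42, 4.17 and 4.56 FPKM in naive wild type, 5.55, 6.47 and 3.01 in injured wild type, 3.40 and 5.69 in the naive knockout and 2.23 and 3.84 in the injured knockout.

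The ELAVL proteins bind AU-rich elements and stabilise transcripts, and all 4 genes were present. Elavl4 (HuD) was at 38.5, 37.2 and 38.3 FPKM in naive wild type, 50.3, 46.3 and 24.1 in injured wild type, 41.8 and 49.5 in the naive knockout and 46.2 and 36.6 in the injured knockout. Elavl4 exceeded Elavl3 (mean 26.7 FPKM) in 9 of 10 libraries, and Elavl3 exceeded the ubiquitous Elavl1 (HuR, mean 18.2) in 9 of 10. Elavl2 (HuB) had the lowest mean, 12.9 FPKM. The FMRP family genes were closer together and had no fixed order. Fmr1, the gene of the fragile X protein, was at 20.1, 29.97 and 15.04 FPKM in naive wild type, 20.95, 17.5 and 25.5 in injured wild type, 25.7 and 18.1 in the naive knockout and 15.7 and 15.7 in the injured knockout. Fxr2 was at 23.6, 12.7 and 17.9 FPKM in naive wild type, 14.2, 14.1 and 9.61 in injured wild type, 9.80 and 13.6 in the naive knockout and 14.0 and 16.4 in the injured knockout.

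The translational repressors were represented by Pum2, a binder of Pumilio response elements, and by the helicase gene Ddx6, a processing body component. Pum2 was at 15.8, 11.8 and 17.2 FPKM in naive wild type, 24.5, 14.8 and 18.7 in injured wild type, 17.5 and 21.2 in the naive knockout and 16.0 and 15.4 in the injured knockout. Ddx6 was at 4.74, 2.48 and 6.04 FPKM in naive wild type, 2, 2.98 and 4.34 in injured wild type, 3.38 and 3.18 in the naive knockout and 2.18 and 4.94 in the injured knockout, below Pum2 in all 10. The zipcode-binding proteins are fetal regulators, and IGF2BP1 among them carries beta-actin mRNA to growth cones. Their genes had the lowest levels together with Nova1, and a wide replicate spread (SD 0.761 to 1.08 log2), matched among members by Fxr1 (0.766). Igf2bp1 was at 0.361, 0 and 0.305 FPKM in naive wild type, 9.34, 0.812 and 0 in injured wild type, 0 and 1.27 in the naive knockout and 4.68 and 4.48 in the injured knockout. Igf2bp2 was at 0.391, 0 and 1.05 FPKM in naive wild type, 2.45, 0.884 and 5.29 in injured wild type, 0 and 0.494 in the naive knockout and 2.58 and 0.0920 in the injured knockout. Igf2bp3 averaged 1.91 FPKM, and 18.7% of its exon bases are shared with exons of Malsu1 (mean 34.8 FPKM), from which unstranded reads cannot be told apart. The same holds for smaller shares of Hnrnpu (6.93%, with Cox20 at 93.3 FPKM) and Fxr1 (2.72%, with Dnajc19 at 80.5 FPKM).

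Injury of wild-type neurites asked which of these transcripts stand at another level in neurites 24 hours after scraping. None of the 41 members passed the test, limma with Benjamini-Hochberg adjustment over all tested genes at 0.05, which called 0.948% of tested genes. At an unadjusted limma p under 0.05 there were 6 of 41 members, against 13.9% of tested genes. These were Celf4, Rbfox3, Nova2 and G3bp2 with lower values after injury, and Tial1 and Hnrnpa2b1 with higher values. The median log2 fold change of the members was -0.09, that of all tested genes 0.01. There were 19 members above 0 (46.3%) and 22 below, where 50.6% of tested genes were above 0. In bulk neurite RNA, fewer neurites of a cell type and less RNA per neurite cannot be told apart.

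Celf4 (chromosome 18, 25477632 to 25754157, mm10) was at 108, 74.9 and 95.7 FPKM in naive wild type and 43.2, 73.5 and 58.8 in injured wild type. All 3 injured values were below all 3 naive values, narrowly so for naive library 2 and injured library 2. The log2 difference was -0.68 ± 0.24 (SE, n = 3 and 3; limma adjusted p = 0.237). In the knockout Celf4 was at 92.4 and 102 FPKM in naive and 76.0 and 62.3 in injured libraries.

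Rbfox3 (chromosome 11, 118489762 to 118911597), whose protein is the neuronal nuclear marker NeuN, was at 60.5, 37.1 and 45.2 FPKM in naive wild type and 28.9, 26.7 and 25.1 in injured wild type. The injured values were close together and below every naive one, with a log2 difference of -0.77 ± 0.30 (SE; limma adjusted p = 0.277). In the knockout it was at 65.6 and 42.8 FPKM in naive and 40.3 and 22.0 in injured libraries. Nova2 (chromosome 7, 18925888 to 18965319) was at 12.3, 10.5 and 14.0 FPKM in naive wild type and 7.63, 4.82 and 4.63 in injured wild type. Its groups also did not overlap, and the log2 fold change was -1.01 ± 0.40 (SE; limma adjusted p = 0.292). In the knockout it was at 14.4 and 10.4 FPKM in naive and 6.80 and 6.67 in injured libraries.

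Tial1 (chromosome 7, 128439777 to 128461717) was at 7.07, 10.5 and 10.8 FPKM in naive wild type and 27.2, 15.4 and 21.2 in injured wild type. Every injured value was above every naive one, and the log2 difference of 1.08 ± 0.40 (SE; limma adjusted p = 0.261) was the larger of the 2 positive differences with p under 0.05. In the knockout Tial1 was at 11.0 and 7.37 FPKM in naive and 10.04 and 20.8 in injured libraries, which overlap. Hnrnpa2b1 was at 261, 233 and 236 FPKM in naive wild type and 339.6, 271 and 331 in injured wild type, a log2 difference of 0.36 ± 0.16 (SE; limma adjusted p = 0.325). G3bp2 was at 96.8, 66.7 and 77.5 FPKM in naive wild type and 67.3, 55.0 and 29.7 in injured wild type, where the groups overlap by a narrow margin. Its log2 difference of -0.72 ± 0.29 (SE; limma adjusted p = 0.302) was -0.38 without wild-type injured library 3, which held the lowest value. Without that library the log2 fold changes of Celf4, Rbfox3, Nova2 and Tial1 were -0.70, -0.73, -0.90 and 1.06.

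Groups that did not overlap were counted over all members. Injured values lay above all naive ones for 3 members, Hnrnpa2b1, Smn1 and Tial1, against 9.78% of tested genes. They lay below for 5, Caprin1, Celf4, Nova2, Rbfox3 and Stau1, against 8.02%. With 41 members these shares are 7.32% and 12.2%, near the background. The 95% interval of the log2 fold change lay within 1 of 0, a 2-fold difference either way, for 19 members, against 18.1% of all tested genes. The members' higher levels and smaller standard errors (median 0.29 against 0.52 on the log2 scale) go with this count.

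**Figure D2:**
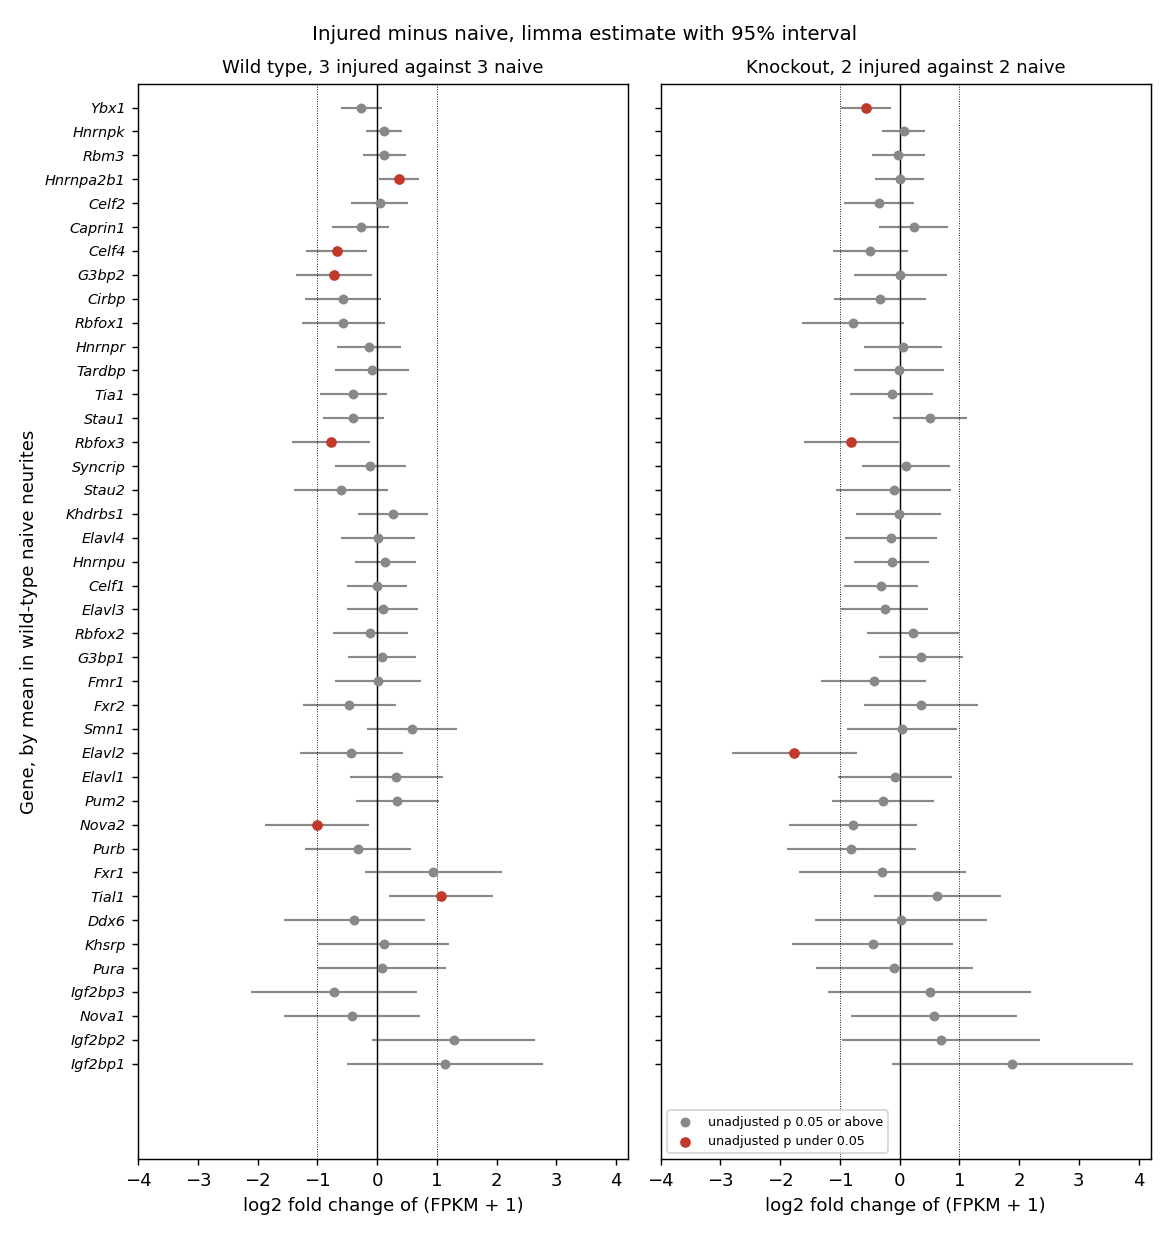
Log2 fold change of injured against naive neurites for the 41 members in wild type and in the knockout, as points with 95% intervals from limma on log2(FPKM + 1). Red points have an unadjusted p under 0.05. Most intervals cross 0, with Celf4, Rbfox3 and Nova2 on the negative side in both panels and Stau1 on opposite sides.

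Injury in the knockout repeated the comparison with 2 libraries a group, none of them shared with the wild-type comparison. No member passed by limma (0.0573% of tested genes did), and 3 had an unadjusted p under 0.05 (5.73% of tested genes): Elavl2, Ybx1 and Rbfox3. The median log2 fold change was -0.08 for members and -0.09 for all tested genes. There were 16 members above 0 (39.0%) and 25 below, where 42% of tested genes were above 0.

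Elavl2 (chromosome 4, 91250763 to 91400785) was at 15.5 and 22.6 FPKM in the naive knockout and 6.99 and 3.21 in the injured knockout. Both injured values were under the lowest value of any other group, which was 8.91, a pattern whose share of tested genes was not counted. The log2 difference was -1.76 ± 0.49 (SE, n = 2 and 2; limma adjusted p = 0.483). In wild type Elavl2 was at 16.55, 18.4 and 12.2 FPKM in naive and 12.9, 12.3 and 8.91 in injured libraries, which overlap. The Ybx1 log2 fold change in the knockout was -0.56 ± 0.19 (SE; limma adjusted p = 0.719), and -0.38 without the library labelled knockout naive 1, where Ybx1 was highest. Rbfox3 differed by -0.81 ± 0.37 (SE; limma adjusted p = 0.863), by -0.51 without that library, and by -1.23 or -0.39 without knockout injured library 1 or 2. Igf2bp1, next by p, differed by 1.89 ± 0.93 (SE; limma adjusted p = 0.897), from 0 and 1.27 FPKM in naive to 4.68 and 4.48 in injured libraries, and by 1.29 without knockout naive 1. Over the alternatives it ranged from 0.77 to 3.66. Igf2bp1 would not have met the filter on the naive libraries alone, so this difference is not independent of the filter.

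In the knockout 6 members had both injured values above both naive ones (Fxr2, G3bp1, Igf2bp1, Igf2bp3, Rbfox2 and Stau1), against 13.5% of tested genes. Igf2bp1 is in this count only because injured libraries took it past the filter. Another 13 had them below (Celf1, Celf2, Celf4, Cirbp, Elavl2, Elavl3, Fmr1, Nova2, Pum2, Purb, Rbfox1, Rbfox3 and Ybx1), against 22.1%. The interval lay within 1 of 0 for 18 members and for 13.2% of tested genes.

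The responses of both genotypes were then set side by side. The log2 fold change had the same sign in both for 18 of 41 members (43.9%), against 53.3% of tested genes. Injured values were below all naive values in each genotype for 3 members, Celf4, Nova2 and Rbfox3, against 2.99% of tested genes, and above in each for none of the members, against 2.18%. Stau1 alone among members was separated in opposite directions, as were 2.03% of tested genes. Beside the 3 neuronal genes that were lower in each genotype, the pan-neuronal marker sum was 3348 to 3692 FPKM in wild-type naive and 2126 to 2887 in wild-type injured libraries. In the knockout it was 3900.1 to 4261 and 2961 to 3955, ranges that overlap. Of the 8 pan-neuronal genes, 3 were above 0 after injury in wild type and 2 in the knockout, and none passed. The interneuron marker sum given above was lower in the injured libraries of each genotype. The part of either marker sum in these values was not tested.

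An average of the injury effect over both genotypes, added after the data were seen, also called no member by limma (0.566% of tested genes), and 8 of 41 had an unadjusted p under 0.05 (11.4% of tested genes). The smallest were Elavl2 at -1.10 ± 0.31 (log2, SE; limma adjusted p = 0.182), Rbfox3 at -0.79 ± 0.24 (0.199), Ybx1 at -0.41 ± 0.13 (0.210) and Celf4 at -0.58 ± 0.19 (0.242). The others were Nova2 at -0.89 ± 0.32, Rbfox1 at -0.67 ± 0.25, Tial1 at 0.85 ± 0.32 and Igf2bp1 at 1.51 ± 0.60. The Igf2bp1 value ranged from 0.65 to 2.75 over the alternatives, and it too is not independent of the filter. The values of 6 of these 8 were lower after injury, and other members of the same families, among them Elavl1, Elavl3, Elavl4, Celf1, Celf2, Rbfox2 and Nova1, were not among the 8. Without knockout injured library 2 the Rbfox1 value was -0.40. Medians were -0.05 for members and -0.04 for all tested genes.

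**Figure D3:**
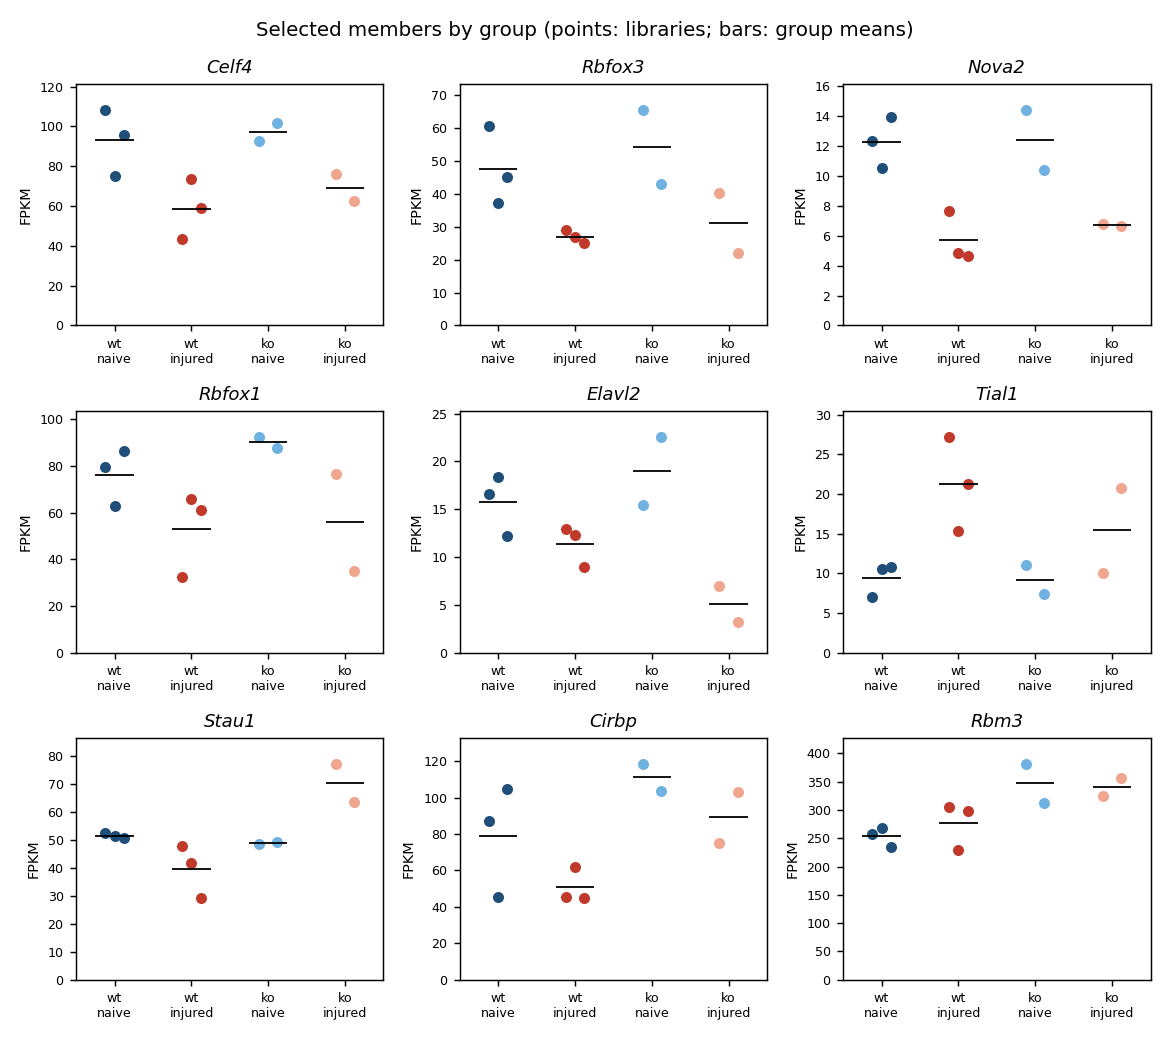
FPKM per library in the 4 groups for members singled out after their values were seen, with a point per library, a bar at the group mean and an axis from 0 in each panel. Rbfox3 and Nova2 are lower in the injured libraries of both genotypes, Elavl2 is lowest in knockout injured libraries, and Stau1 is highest there.

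Genotype in naive neurites asked what the floxed Cpeb1 allele with Cre does in neurites left alone. The genotype comparisons use the same libraries as the injury comparisons and are not independent of them. No member passed by limma (0.146% of tested genes did), and only Rbm3 had an unadjusted p under 0.05, against 3.76% of tested genes. Its naive values of 382 and 312 FPKM in the knockout were above the 258, 269 and 234 of wild type, a log2 difference of 0.45 ± 0.19 (SE, n = 2 and 3; limma adjusted p = 1). Without the library labelled knockout naive 1, in which Cpeb1 was at the wild-type level, the Rbm3 difference was 0.30. Cirbp differed by 0.56 ± 0.33 (SE; limma adjusted p = 1), with wild-type naive library 2 at 45.6 FPKM and the others from 87.2 to 118. The Cirbp difference was 0.21 without wild-type naive library 2 and 0.47 without the knockout library named above.

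Fxr1, a muscle- and brain-expressed FMRP relative, was at 5.19, 14.3 and 8.87 FPKM in naive wild type and 19.6 and 17.5 in the naive knockout, a log2 difference of 1.00 ± 0.59 (SE; limma adjusted p = 1). It was at 25.96, 25.1 and 8.47 FPKM in injured wild type and 8.38 and 26.2 in the injured knockout, so replicates of the injured groups differed by about as much as any groups did. Ybx1 differed by 0.28 ± 0.18 (SE; limma adjusted p = 1), by 0.10 without the library labelled knockout naive 1 and by 0.45 without knockout naive 2.

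In naive neurites 10 members had both knockout values above all wild-type ones, against 14.1% of tested genes: Elavl1, Elavl4, Fxr1, Hnrnpa2b1, Hnrnpr, Khdrbs1, Pum2, Rbfox1, Rbm3 and Ybx1. Some margins were wide, as for Rbm3 at 312 against 269 FPKM, and others thin. The lower knockout value of Hnrnpr was 87.942 FPKM against a highest wild-type value of 87.872, and for Pum2 these were 17.5 and 17.2. The share of members, 24.4%, was above the background, and the smallest of the corresponding p-values was that of Rbm3. This share was counted on the deposited scaling only. It does not allow for the members' smaller replicate spread (median SD 0.329 against 0.583 log2 over all tested genes). Another 4 lay below (G3bp2, Igf2bp3, Stau1 and Tia1), against 8.51%. The median log2 fold change was 0.07 for members and 0.06 for all tested genes, with 27 members above 0 (65.9%), against 55.4% of tested genes. The interval lay within 1 of 0 for 21 members and 18.0% of tested genes.

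**Figure D4:**
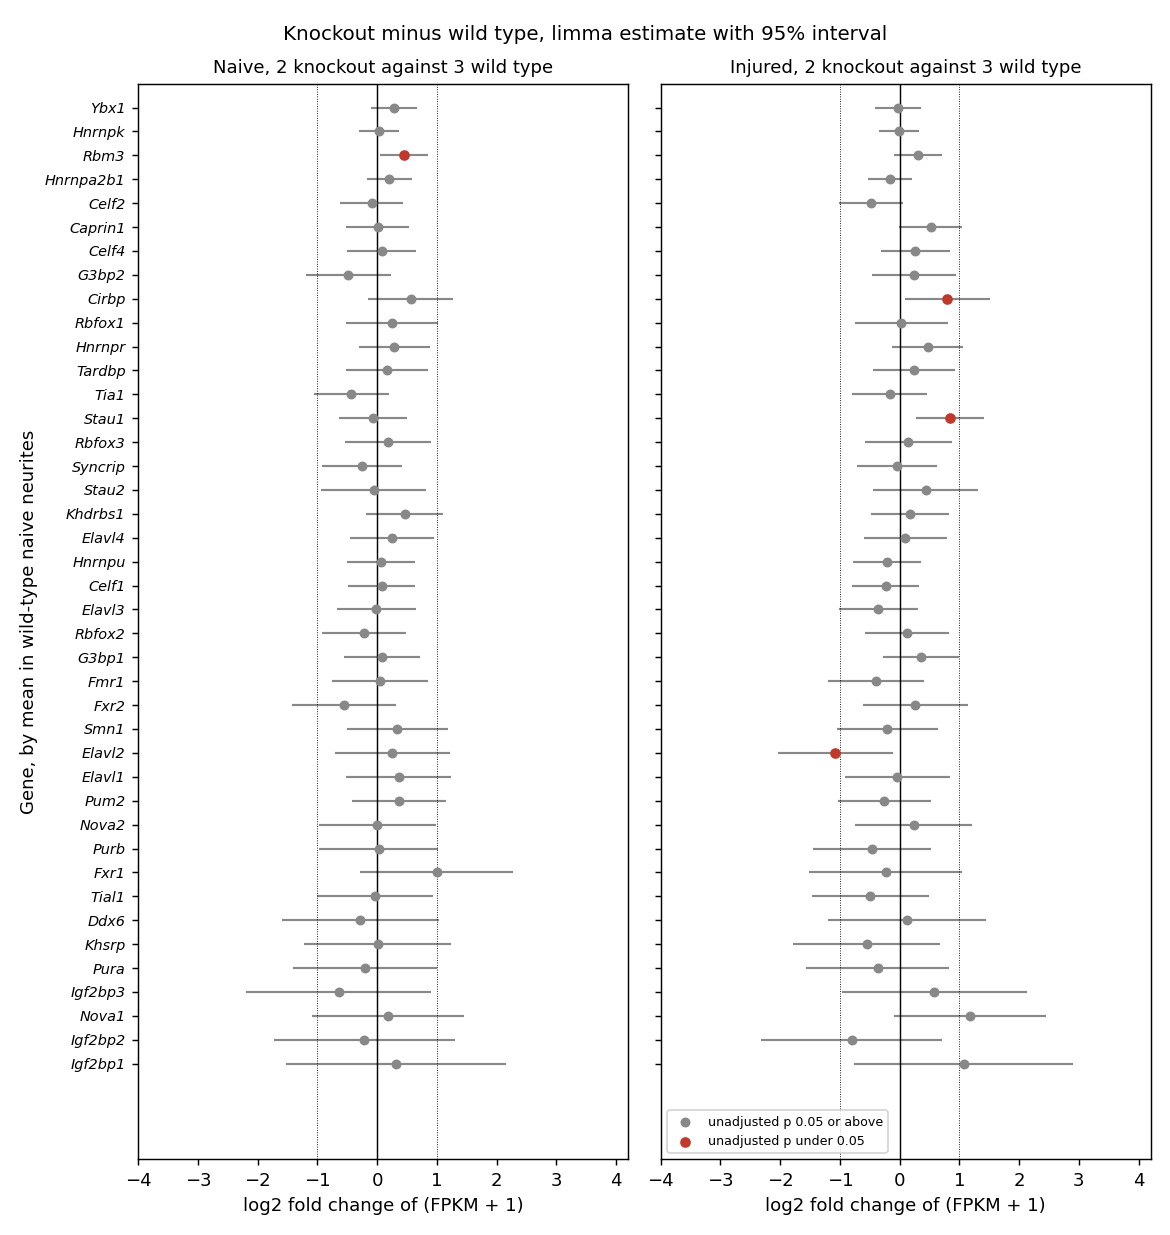
Log2 fold change of knockout against wild type for the 41 members in naive and in injured neurites, as points with 95% intervals from limma on log2(FPKM + 1). The intervals of Rbm3 in naive and of Stau1, Cirbp and Elavl2 in injured neurites leave out 0, without adjustment for the number of genes.

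Genotype in injured neurites asked the same of regrown neurites. No member passed by limma (0.261% of tested genes did), and 3 had an unadjusted p under 0.05, against 10.5% of tested genes: Stau1, Cirbp and Elavl2. Stau1 (chromosome 2, 166947549 to 166996299), which couples double-stranded RNA to transport and to decay, was at 77.2 and 63.6 FPKM in knockout injured and 47.7, 41.8 and 29.2 in wild-type injured libraries. Both knockout values were above every other Stau1 value in the study, since the naive ones were 52.4, 51.4 and 50.6 in wild type and 48.5 and 49.2 in the knockout. How many tested genes have such a pattern was not counted. The log2 difference was 0.84 ± 0.26 (SE, n = 2 and 3; limma adjusted p = 0.299), and 0.64 without wild-type injured library 3, which held the lowest value. Over the alternatives the difference ranged from 0.64 to 1.08. These include leaving out wild-type injured library 1, where Cpeb1 was within the knockout injured range.

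Cirbp, at 75.2 and 103 FPKM in knockout and 45.3, 62.1 and 44.7 in wild-type injured libraries, differed by 0.80 ± 0.33 (SE; limma adjusted p = 0.419). Elavl2, at 6.99 and 3.21 against 12.9, 12.3 and 8.91 FPKM, differed by -1.07 ± 0.44 (SE; limma adjusted p = 0.421). Caprin1, next by p, differed by 0.52 ± 0.24 (SE; limma adjusted p = 0.482), with overlapping values of 195 and 114 against 109, 116 and 87.7 FPKM. Without knockout injured library 1 or 2 the Caprin1 difference was 0.13 or 0.91, and without library 2 that of Elavl2 was -0.61. Beside these, the nuclear-retained RNAs summed to 6097 to 7329 FPKM in wild-type injured and 1825.0 to 2975 in knockout injured libraries, a difference carried by Malat1 (log2 difference -1.79, limma adjusted p = 0.0200), while the median of the 7 genes was -0.43. Its part in these values was not tested.

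Both knockout injured values were above all wild-type injured ones for Cirbp, Nova1, Rbm3 and Stau1 (9.72% of tested genes), and below for Celf2, Elavl2, Fmr1 and Pura (12.2%). These are 4 of 41 members each way, or 9.76%. The interval lay within 1 of 0 for 18 members and for 14.9% of tested genes, and the medians were 0.03 for members and -0.05 for all tested genes.

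The genotype effect averaged over naive and injured neurites, also added after the data were seen, called no member by limma (0.204% of tested genes), and 2 had an unadjusted p under 0.05 (7.68% of tested genes). These 2 are 4.88% of the 41 members, below the share of tested genes. They were Cirbp at 0.68 ± 0.23 (log2, SE; limma adjusted p = 0.518) and Rbm3 at 0.38 ± 0.13 (0.523). Next by p were Stau1 and Hnrnpr at 0.38 ± 0.19 and 0.38 ± 0.20. All 4 knockout libraries were above all 6 wild-type ones for Rbm3, by a margin of 312 against 305 FPKM. The share of tested genes separated in this way was not counted. Without the library labelled knockout naive 1 the averaged differences of Cirbp and Rbm3 were 0.63 and 0.30. The Rbm3 transcript holds the printed motif nearest to a transcript end, 25 nt from it, and the Cirbp region holds no motif. No relation between motifs and fold changes was tested.

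The interaction asked whether injury acted differently in the knockout. It called no gene at all by limma (0% of tested genes), while 979 genes, 6.23%, had an unadjusted p under 0.05, and 1 member, Stau1, was among them. Its injury effect was higher in the knockout by 0.91 ± 0.37 (log2, SE; limma adjusted p = 0.791), and by 0.71 without wild-type injured library 3. Elavl2 differed by -1.33 ± 0.63 (limma adjusted p = 0.800), G3bp2 by 0.73 ± 0.46 (0.824) and Fxr1 by -1.24 ± 0.84 (0.828). Without that library the G3bp2 value was 0.39. The Fxr1 value was -0.47 without knockout injured library 1 and -2.004 without knockout injured library 2, and the Elavl2 value was -0.87 without the latter. G3bp2 was at 63.4 and 50.3 FPKM in the naive knockout and 51.6 and 62.7 in the injured knockout, which overlap. Medians were -0.14 for members and -0.13 for all tested genes.

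Other RNA-binding and granule genes were read from 4 companion lists, all of whose genes were tested. None of them passed in wild-type injury or in any other comparison, and the counts with an unadjusted limma p under 0.05 in wild-type injury were 5 of 23 processing body and decay genes, 4 of 30 other granule proteins, 6 of 34 other hnRNPs and splicing regulators, and 3 of 8 SMN complex genes, beside 13.9% of all tested genes. Their median log2 fold changes were -0.15, 0.25, 0.06 and 0.06. Smallest by p among all 4 lists was Hnrnph1, a splicing regulator that binds G-runs. It was at 153, 167 and 135 FPKM in naive wild type and 284, 230.0 and 235 in injured wild type, without overlap, a log2 difference of 0.71 ± 0.17 (SE; limma adjusted p = 0.0680).

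Ptbp1, the polypyrimidine-tract protein of non-neuronal cells and progenitors, was at 23.5, 18.6 and 22.3 FPKM in naive wild type and 46.0, 40.3 and 88.2 in injured wild type, a log2 difference of 1.32 ± 0.35 (SE; limma adjusted p = 0.114). Hnrnpc, a nuclear binder of U-runs, differed by 0.80 ± 0.23 (limma adjusted p = 0.150). Beside these values the astrocyte and radial glia marker sums and Malat1, given above, were also higher in wild-type injured libraries, with the injured and naive ranges of the radial glia sum overlapping, and their part was not tested. Among the granule proteins, Nufip2, an FMRP-interacting protein gene, differed by 2.12 ± 0.57 (0.122), the poly(A)-binding protein gene Pabpc1 by 0.84 ± 0.28 (0.210) and the FMRP partner gene Cyfip2 by -0.81 ± 0.32 (0.284). Among the decay genes, Zfp36l2 and Zfp36, which recruit deadenylases to AU-rich elements, differed by 1.89 ± 0.54 (0.147) and 1.78 ± 0.58 (0.205), and the nonsense-mediated decay gene Upf2 by -1.37 ± 0.53 (0.277). In the SMN complex Gemin6 differed by 1.13 ± 0.40 (0.243), Gemin2 by -1.69 ± 0.70 (0.312) and Gemin4 by 1.37 ± 0.57 (0.316). Numbers in parentheses are limma adjusted p-values. Several of these folds rest on values near the floor of the filter. The lowest wild-type naive values were 0.742 FPKM for Zfp36l2, 0.42 for Zfp36 and 0.394 for Nufip2. The lowest wild-type injured value of Gemin2 was 0.031. Zfp36l2 went the other way in the knockout, from 2.09 and 1.65 FPKM in naive to 0 and 0.755 in injured libraries. Zfp36 went from 0.055 and 0.207 to 1.72 and 1.00 there.

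Processed pseudogenes of near-identical sequence exist for 7 members, G3bp1, Hnrnpk, Hnrnpr, Khsrp, Rbm3, Syncrip and Ybx1. No such copy reached the filter for testing, and the highest value of any was 5.37 FPKM, for a copy of Syncrip, and how reads were shared between copies and members is uncertain.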

How the data were processed

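Per the submitters' processing notes, reads were aligned with STAR 2.4.2a and quantified with RSEM 1.2.21. The deposited values were taken as FPKM from the authors, divided by a factor per library. This was inferred from the values. Multiplied by that factor, at least 99.9978% of the values of a library lay within 0.001 of a whole multiple of 0.01, and value times transcript length summed to nearly the same total in each library. Libraries were made by Smart-seq2, which keeps no strand, per the labels' protocols. GENCODE release M21 gave names and coordinates for 44548 of 45195 gene IDs, and 647 did not match.

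Values were tested as log2(value + 1) in limma 3.58.1 under R 4.3.3, using eBayes with its trend option. Each of the 4 groups had a mean in 1 fit of the 10 libraries, over 15712 genes with at least 1 FPKM in at least 2 libraries. Fold changes are on the log2(value + 1) scale, which understates those of low genes. The Benjamini-Hochberg adjustment was made over all tested genes of each comparison, and 0.05 was the threshold. The 5 comparisons came from the design and 2 averages were added after the data were seen. The scripts were tested on simulated data.

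The members and gene lists were chosen with earlier results of these data known. Every member is named with a level. Values in every library are given for the 4 members with the smallest p in each comparison and for the highest and lowest mean in a family, and folds for the former. Members with an unadjusted p under 0.05, Malat1, the members drawn by library and those of the added averages were chosen after their values were seen. From each companion list the 3 genes with the smallest p in wild-type injury are named. Copies were found with blastn 2.17.0 as matches of 95% identity that span 150 nt or more and 50% or more of the shorter sequence. Replicate numbers did not pair the samples (correlations of same-numbered deviations from -0.048 to 0.041). Alternatives were quantile and median-ratio scaling, the factor undone, pseudocounts of 0.1 and 5, no filter, a minimum of 5, no trend, robust eBayes, the groups compared alone, protein-coding genes without a copy, a replicate block and leaving out each library. Protein sequences were not used here.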

Additional observations from a re-analysis of the deposited data

Results flagged for a closer look

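Stau1 was singled out because injury separated its libraries in opposite directions in the genotypes. All 3 wild-type injured values (47.7, 41.8 and 29.2 FPKM) were below the wild-type naive ones (52.4, 51.4 and 50.6), and both knockout injured values (77.2 and 63.6) were above the knockout naive ones (48.5 and 49.2). The difference between the injury effects was tested as the interaction, which gave 0.91 ± 0.37 on the log2 scale and did not pass (limma adjusted p = 0.791). Over the alternatives it ranged from 0.71 to 1.28, with adjusted p from 0.482 to 0.999. Opposite separation of this kind was found for 2.03% of tested genes and 1 of 41 members.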

How the results depend on the processing

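No member passed the limma threshold in any of the 7 comparisons under any alternative, and no member named with a fold change reversed sign. The lowest adjusted p of any member over the alternatives was 0.0723 in wild-type injury, 0.304 in knockout injury, 0.588 and 0.176 for genotype in naive and injured neurites, 0.482 for the interaction, and 0.0586 and 0.307 for the averages of injury and genotype.

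The members' median log2 fold change depended on the scaling. In wild-type injury it was -0.19 under quantile normalization and -0.27 with the library factor undone. In knockout injury it was 0.018 under median-ratio scaling and 0.11 with the factor undone. For genotype in naive neurites it was -0.020, -0.0094 and -0.061 under quantile, median-ratio and undone scaling, and in injured neurites 0.11, 0.12 and 0.28. For the interaction it was 0.13, 0.030 and 0.24. Undoing the factor moved the median of all tested genes too, from 0.01 to -0.13 in wild-type injury, from -0.09 to 0.05 in knockout injury, from -0.05 to 0.12 for genotype in injured neurites, from 0.06 to -0.038 in naive neurites and from -0.13 to 0.17 for the interaction. Leaving out 1 library at a time gave interaction medians from -0.21 to 0.0094, with -0.012 without wild-type naive 3, -0.066 without wild-type injured 1, and -0.045 and 0.0094 without knockout injured 1 and 2.

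With the replicate number as a block, 0 members passed in every comparison and the members' median was -0.09 in wild-type injury. Same-numbered libraries did not deviate together, so this block rests on a shared number only. The 2 knockout libraries a group and Smart-seq2 amplification from 1 ng limit what these tests can detect.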
